A study of Mus musculus with 24 samples.

Results

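The genes described here are the components, regulators and receptors of the complement system in mouse kidney. They were taken by symbol from a list of 31 genes, and 30 of the 31 were found among the 23955 genes of the deposited count table. C1s is not a symbol in that table. Its mouse copies C1s1 and C1s2 are, and values of C1s1 are given without counting either copy as a member. The 30 genes fall into 8 of the classical pathway, 2 of the lectin pathway, C3, 3 of the alternative pathway, 7 of the terminal pathway, 6 regulators and 3 receptors. 26 of the 30 passed the filter on low counts and were tested, and C1rb, C8b, C9 and Vsig4 did not pass.

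Kidney RNA was sequenced from mice labelled PLD4+/+ (WT below) and PLD4-/- (KO below), either as control kidneys at day 0 or at day 5 or day 10 of unilateral ureteral obstruction (UUO), a blockage of the urine outflow of one kidney that is used as a model of kidney injury and fibrosis. Pld4 encodes a lysosomal exonuclease of immune cells. Each of the 6 groups holds 4 libraries, made as stranded mRNA libraries from total RNA, and total counts ran from 9800888 to 22542866 per library. The labels used here give no age, sex, strain or design of the mutated allele, no sham operation for the day 0 kidneys, and no statement that replicates are separate animals, so the p-values measure the spread between these libraries. Levels are given as CPM, counts scaled to library size with TMM factors, unless FPKM is named, and values are listed in the order of replicates 1 to 4.

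Pld4 RNA was present in every library labelled KO. Its level was 6.70 to 12.6 CPM in KO against 5.10 to 8.25 in WT at day 0, 13.4 to 32.6 against 46.5 to 50.9 at day 5, and 24.3 to 50.3 against 54.6 to 117 at day 10. The log2 difference passed the test at day 10 (-1.13, adjusted p = 0.0331) and not at day 5 (-1.25, adjusted p = 0.0724) or day 0 (0.50, adjusted p = 0.438), so this gene does not check the day 0 labels, and KO and WT mean libraries so labelled throughout. The day 10 call of Pld4 ended without WT day 10 replicate 2 or 3 or any 1 KO day 10 library (adjusted p from 0.0586 to 0.154) and with a replicate block (0.0911), and the day 5 difference passed once KO day 5 replicate 1 or WT day 5 replicate 4 was left out. WT day 10 replicates 2 and 3 stood apart from the other libraries. Their summed CPM of 9 neutrophil markers was 4110 and 6667, against 26.6 to 27.4 in replicates 1 and 4, and that of 9 macrophage markers was 4738 and 7362, against 981 to 1080.1. Proximal tubule markers, 8 genes, summed to 246 and 754 CPM in these 2 libraries and to 2236 to 21122 in the other 22. Several results that rest on these 2 libraries are given with and without them, and the other WT day 10 values are given with them only.

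Complement is a cascade of plasma and tissue proteins. The classical pathway starts when C1q, with its proteases C1r and C1s, recognises antibody or damaged cells and cleaves C4 and C2, the lectin pathway does the same through MASP proteases, and the alternative pathway amplifies cleavage of C3 through factor B, factor D and properdin. Cleaved C5 then assembles with C6, C7, C8 and C9 into a pore, small fragments act on the receptors C3aR and C5aR, and soluble and membrane-bound regulators hold the cascade in check. The liver makes most plasma complement, macrophages make C1q, and kidney epithelium and stroma can make C3 and other components locally.

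Promoter windows are shown for members whose RNA rose, C1qb and C1qc because they are chains of C1q whose windows hold the same motif core, and C3 because it had the highest FPKM of the members after obstruction. Each is the 250 bases before the gene's start from RefSeq on GRCm38.p6, written 5′ to 3′ on the gene's strand, here the minus strand, with motif matches in capitals. The windows are chr4:136886201-136886450, chr4:136892915-136893164 and chr17:57228137-57228386.
C1qb: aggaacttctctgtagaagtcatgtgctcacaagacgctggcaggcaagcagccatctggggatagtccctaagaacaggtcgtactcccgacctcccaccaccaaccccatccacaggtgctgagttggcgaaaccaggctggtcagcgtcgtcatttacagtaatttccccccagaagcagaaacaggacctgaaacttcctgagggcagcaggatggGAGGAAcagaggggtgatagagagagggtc
C1qc: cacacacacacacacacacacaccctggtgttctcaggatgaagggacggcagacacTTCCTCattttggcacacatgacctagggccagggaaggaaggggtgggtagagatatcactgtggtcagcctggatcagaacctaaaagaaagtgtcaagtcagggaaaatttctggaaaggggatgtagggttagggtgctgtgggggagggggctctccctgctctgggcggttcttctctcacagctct
C3: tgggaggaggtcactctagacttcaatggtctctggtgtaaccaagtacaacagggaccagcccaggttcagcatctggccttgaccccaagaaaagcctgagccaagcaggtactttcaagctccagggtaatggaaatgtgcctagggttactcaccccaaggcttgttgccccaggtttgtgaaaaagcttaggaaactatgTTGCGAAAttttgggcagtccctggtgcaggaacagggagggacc

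Capitals mark GAGGAA, the core bound by PU.1, a macrophage transcription factor, at bases -30 to -25 of C1qb and, on the other strand as TTCCTC, at -193 to -188 of C1qc. In C3 they mark TTGCGAAA at -45 to -38, a match to the C/EBP motif TTGCNNAA, C/EBP being a family of factors of the acute phase. GAGGAA was found on either strand in 23.3% of 32851 RefSeq windows of this length and in those of 4 of 22 members with a window (C1qb, C1qc, Cd59a and Vsig4). TTGCNNAA was found in 9.56% of all windows and in 3 of the 22 members (C1rb, C3 and C9). The STAT motif TTCNNNGAA was in 7.02% of windows and 4 members (C1rb, C7, C8a and Masp2), and the interferon-stimulated response element in 2.98% and 1 member (Cd59a). The window of C1qa, which rose like C1qb and C1qc, was not analysed here. These are matches of letters only, and their use in these kidneys was not tested.

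By FPKM, which divides by gene length and so allows levels of different genes to be set side by side, factor B led the complement genes of the control kidney. Cfb, the protease subunit of the alternative C3 convertase, stood at 110.0 ± 11.99 FPKM (SD, n = 4) in WT at day 0, above the ranges of all others. Cd59a, which blocks the terminal pore, at 23.5 ± 4.60 FPKM (SD, n = 4), and Cr1l (Crry), a membrane regulator of C3 cleavage, at 23.1 ± 1.57 FPKM (SD, n = 4), came next and overlapped. C8g, Serping1, C2, C8a, C1qb, Cd55 and C1qa followed at means between 9.15 and 15.1 FPKM with ranges that overlapped from neighbour to neighbour, and C3 was 14th of 30 at 1.49 ± 0.428 FPKM (SD, n = 4).

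After obstruction the order changed. C3 had the highest mean, 262 ± 72.2 FPKM (SD, n = 4) in WT at day 5 and 397 ± 271 FPKM (SD, n = 4) at day 10, and in KO 247 ± 46.5 FPKM (SD, n = 4) and 257 ± 74.5 FPKM (SD, n = 4). At day 5 Cfb had the next mean, and its range of 98.4 to 214 FPKM in WT and 138 to 215 in KO overlapped that of C3, 196 to 364 and 196 to 304. At day 10 C1qa, C1qb and C1qc came next in both genotypes, with means of 309.5, 303 and 251 FPKM in WT and 231, 221 and 187 in KO, and their ranges overlapped that of C3. The 30 genes together took 0.0834% ± 0.00368 of all counts in WT at day 0, 0.372% ± 0.0493 at day 5 and 0.591% ± 0.328 at day 10 (SD, n = 4). At WT day 10 replicates 2 and 3 held 0.652% and 1.03%, while replicates 1 and 4, at 0.362% and 0.318%, lay no higher than the WT day 5 mean. The shares in KO were 0.110% ± 0.00970, 0.372% ± 0.0207 and 0.434% ± 0.0465. C3 alone made up 0.994% to 2.01% of the complement counts in WT day 0 libraries, and from 32.8% to 58.4% in the 16 obstructed libraries.

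Obstruction raised most of the tested complement genes and lowered a few. In WT at day 5 against day 0, 15 of 26 were higher and 5 lower at an adjusted p under 0.05 (edgeR quasi-likelihood test, Benjamini-Hochberg over 15080 genes), where 56.6% of all genes tested were called, 31% higher and 25.6% lower. At day 10, 16 were higher and 6 lower, beside 68.1% of all genes called, 37.8% higher and 30.3% lower. In KO, 15 were higher and 4 lower at day 5 (of all genes 39.5% were called, 22.4% higher and 17% lower), and 16 higher and 5 lower at day 10 (of all genes 54.3%, 28.3% higher and 26% lower). The median log2 fold change of the 26 was 1.63 and 1.94 in WT at day 5 and day 10 and 1.54 and 1.68 in KO, beside 0.08, 0.12, 0.01 and 0.04 over all genes. A gene low at day 0 can enter these counts through its obstructed libraries, so they describe the 26 genes and not the 4 left untested.

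The same 14 genes were higher in all 4 comparisons of obstructed with control kidneys: C1qa, C1qb, C1qc, C1ra, C4b, Masp1, C3, Cfp, C6, C7, Cfi, Serping1, C3ar1 and C5ar1. Another 4 were lower in all of them (C8a, C8g, Cd55 and Masp2), 3 passed in none (C4a, Cd46 and Cfb), and C2, Cd59a, Cfd, Cr1l and Hc differed between comparisons. The share of all tested genes called the same way in all 4 comparisons was not computed, so these counts have no background beside them. By role, the median log2 fold change in WT at day 10 was 5.99 for the 2 tested receptors, 3.41 for 7 classical genes, 1.35 for 5 terminal genes, 0.12 for 6 regulators and -0.34 for 3 alternative pathway genes. With WT day 10 replicates 2 and 3 left out these were 4.12, 3.15, 0.84, 0.14 and -0.48. In KO at day 10 the medians were 1.95, 1.90, 1.47, 0.10 and -0.28. In RNA from whole kidney, a change in the number of cells of a type and a change in RNA per cell cannot be told apart. Summed macrophage markers rose with the complement genes, from 146 to 208 CPM in WT at day 0 to 612 to 759 at day 5 and 981 to 7362 at day 10, with 8 and then 9 of 9 genes called higher, and in KO from 257 to 333 through 834 to 1085 to 900.4 to 1172, with 7 and 8 of 9. Injured tubule markers were all 6 higher at both days in both genotypes. They summed to 957 to 1526 CPM in WT at day 0 and to at least 18699 in every obstructed WT library. In KO the sums were 939 to 3257 CPM at day 0, 18137 to 24750 at day 5 and 17482 to 24907 at day 10. Fibroblast markers were higher in all 4 comparisons, 8 of 8 genes in each, with sums of 179 to 326 CPM in WT at day 0, 1939 to 3181 at day 5 and 1979 to 11886 at day 10, and 255 to 495, 2335 to 4573 and 2792 to 4330.0 in KO. T cell markers were higher in WT, 7 of 8 at day 5 and 8 of 8 at day 10, and in KO 0 and 3 of 8. The part of these cells in the complement changes was not tested.

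**Figure D1:**
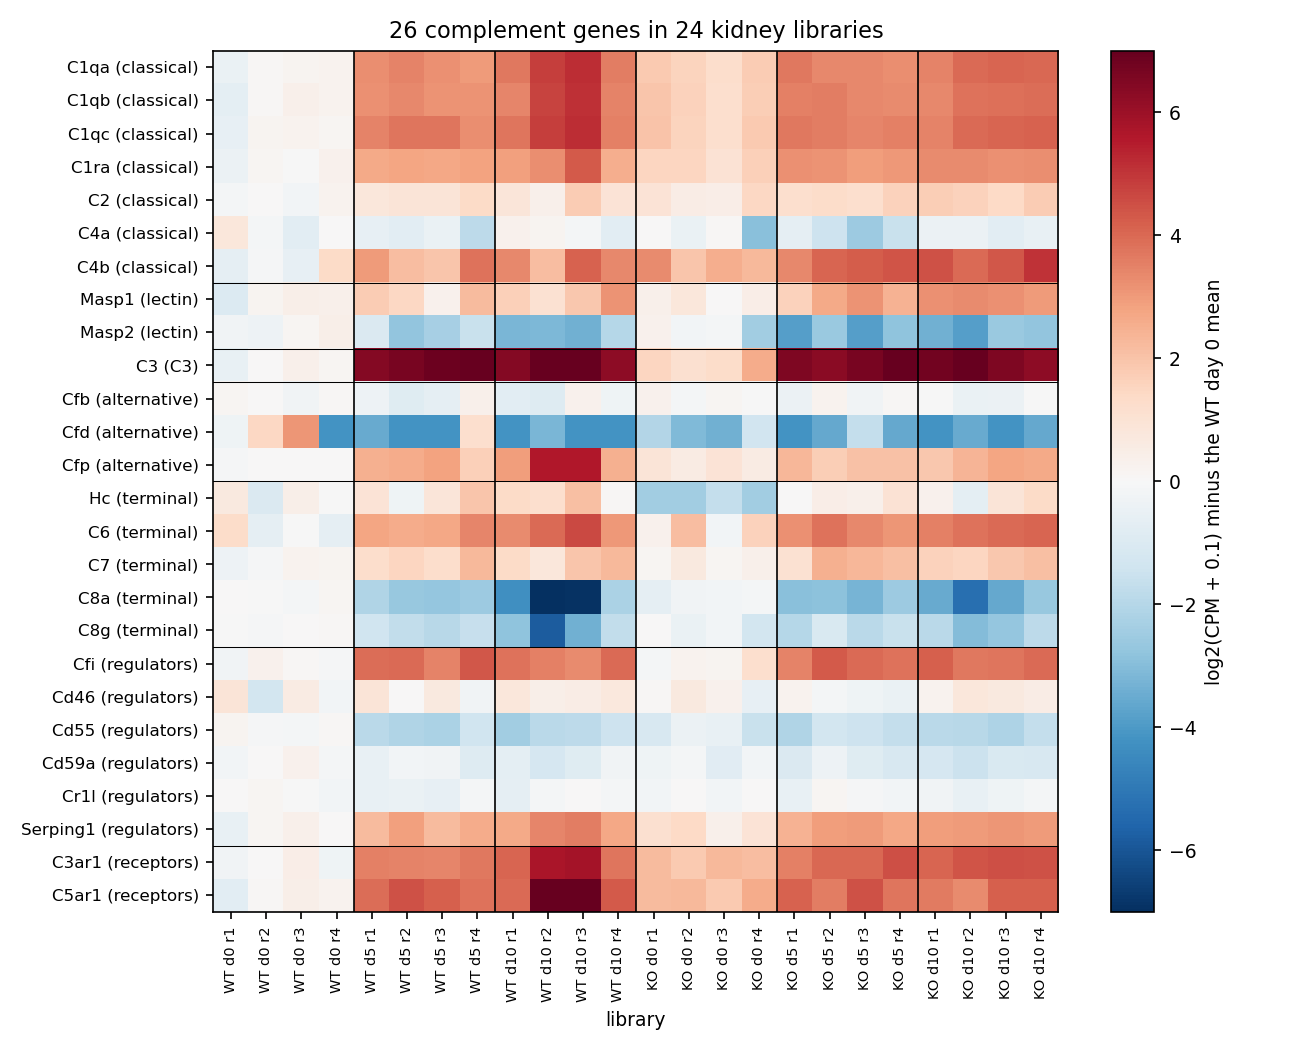
Rows are the 26 tested complement genes grouped by role, columns are the 24 libraries, and colour gives log2(CPM + 0.1) minus the WT day 0 mean of that gene (red higher, blue lower, saturated beyond 7). C3, the C1q chains and the receptors are red in all obstructed libraries, deepest in WT day 10 replicates 2 and 3, while Cd55, C8a and C8g are blue.

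Among classical pathway genes, the 3 chains of C1q, the recognition molecule, rose side by side. C1qa stood at 11.5, 16.9, 18.2 and 19.3 CPM in WT at day 0, 153, 178, 149 and 130.3 at day 5 and 212, 460.3, 580.3 and 198 at day 10. In KO it stood at 56.9, 47.9, 38.2 and 56.7 CPM, then 207, 167, 169 and 156, then 183, 251, 269.7 and 267. Every obstructed library lay above every control library of its genotype, and the 2 high values at day 10 are WT replicates 2 and 3. The log2 fold change of C1qa was 3.21 ± 0.29 (SE; adjusted p = 2.78e-08) at day 5 and 4.46 ± 0.30 (SE; adjusted p = 4.54e-10) at day 10 in WT, that is 9.26-fold and 22.1-fold, and 1.81 and 2.28 in KO. The C1qa value at WT day 10 was 3.67 without these 2 libraries. C1qb (3.17, 4.33, 1.81 and 2.10 in the same order) and C1qc (3.53, 4.48, 1.88 and 2.24) had like values. The FPKM ratio of C1qb to C1qa ran from 0.853 to 1.26 over the 24 libraries with a median of 1.00, and that of C1qc to C1qa from 0.744 to 1.16 with a median of 0.822.

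C1ra, which encodes the protease that activates C1s, rose from 5.19, 7.65, 6.64 and 8.51 CPM in WT at day 0 to 43.4, 46.6, 45.2 and 49.04 at day 5 and 50.98, 67.7, 138 and 39.9 at day 10, where replicate 3 was highest. Its KO values were 14.2 to 22.5, 53.5 to 63.6 and 64.8 to 69.9, with no overlap between day 0 and either later day in either genotype. The log2 fold changes were 2.72 and 3.41 in WT and 1.63 and 1.82 in KO. C1s1, a copy of C1s outside the list, gave 2.78, 3.34, 1.88 and 2.16. C2, the protease cleaved by C1s, had smaller changes, 1.00 ± 0.24 (SE; adjusted p = 0.00166) and 1.08 ± 0.24 (SE; adjusted p = 0.000544) in WT and 0.73 ± 0.24 (SE; adjusted p = 0.0142) in KO at day 10, and did not pass in KO at day 5. The KO day 10 call of C2 was lost without KO day 0 replicate 2 (adjusted p = 0.0519) or replicate 3 (0.0558).

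C4b, the substrate of C1s, varied up to several-fold within groups. Its WT levels were 3.11, 4.68, 3.23 and 12.6 CPM at day 0, 40.2, 22.2, 19.5 and 69.2 at day 5 and 52.3, 22.6, 88.5 and 50.98 at day 10. Its KO levels were 50.3, 19.2, 29.9 and 23.98, 51.2, 85.3, 94.4 and 108 and 113, 79.4, 101 and 167. Obstructed libraries were above controls in both genotypes, by the smallest margin at KO day 5, where 51.2 CPM in replicate 1 stood just above 50.3 in KO day 0 replicate 1. The log2 fold changes were 2.68 ± 0.50 (SE; adjusted p = 0.000188) and 3.18 ± 0.51 (SE; adjusted p = 1.72e-05) in WT and 1.46 ± 0.47 (SE; adjusted p = 0.0175) and 1.90 ± 0.47 (SE; adjusted p = 0.00211) in KO. Without KO day 0 replicate 2 the KO day 5 value was 1.29 with an adjusted p of 0.0549.

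The lectin pathway genes went in opposite directions. Masp1 rose from 0.259, 0.680, 0.807 and 0.773 CPM in WT at day 0 to 2.26, 1.77, 0.760 and 3.05 at day 5, which overlapped day 0 through replicate 3, and 2.08, 1.32, 2.40 and 5.87 at day 10, which did not. In KO it went from 0.609 to 1.07 CPM to 1.98 to 5.90 and 5.41 to 6.78, with no overlap. Its log2 fold changes were 1.64 and 2.20 in WT and 2.25 and 2.90 in KO. Masp2, the protease that cleaves C4 and C2, fell from 1.70 to 2.92 CPM in WT at day 0 to 0.236 to 1.01 and 0.120 to 0.476, log2 changes of -1.93 ± 0.53 (SE; adjusted p = 0.0044) and -3.27 ± 0.59 (SE; adjusted p = 5.77e-05). In KO, Masp2 fell from 2.66, 1.91, 1.98 and 0.311 CPM to 0.0583, 0.276, 0.0590 and 0.226 at day 5 and 0.118, 0.0590, 0.269 and 0.228 at day 10, and the low day 0 library, replicate 4, was still above all 8 obstructed ones. These are low levels: the 24 libraries together held 1137 counts of Masp1 and 260 of Masp2.

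C3, the component on which the pathways converge, had the highest fitted log2 fold change of the 26 in each obstruction comparison. It stood at 10.5, 15.6, 19.8 and 16.8 CPM in WT at day 0, 1338, 1549.7, 1773 and 2478 at day 5 and 1333, 3052, 5563 and 1198 at day 10. In KO the values were 43.2, 33.7, 37.4 and 92.5, then 1451, 1245, 1556 and 1949.5, then 1651, 2089, 1409 and 1176. Control and obstructed libraries were far apart in both genotypes, and WT day 10 replicates 2 and 3 held the highest values. The rise was 114-fold in WT at day 5, a log2 change of 6.83 ± 0.52 (SE; adjusted p = 3.18e-09), and 178-fold at day 10 (7.48 ± 0.53 SE, adjusted p = 7.25e-10). In KO it was 29.96-fold (4.91 ± 0.47 SE, adjusted p = 2.02e-07) and 30.6-fold (4.93 ± 0.47 SE, adjusted p = 9.31e-08). The WT day 10 log2 value was 6.36 without these 2 libraries.

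**Figure D2:**
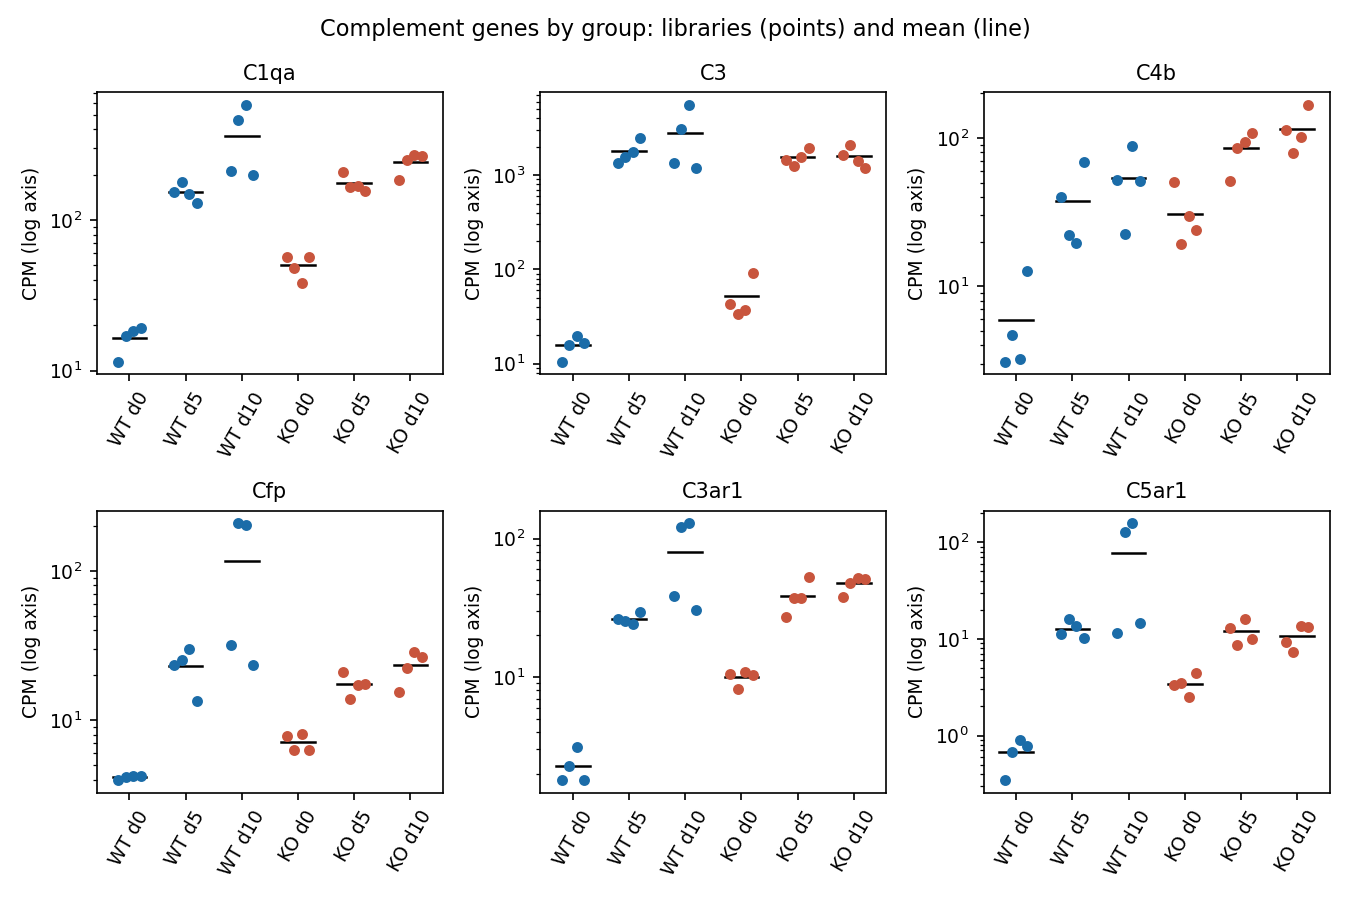
CPM on a log axis for C1qa, C3, C4b, Cfp, C3ar1 and C5ar1, with each library as a point (WT blue, KO red) and the group mean as a line. All 6 genes are higher in obstructed than in day 0 libraries, KO day 0 lies above WT day 0, and for Cfp, C3ar1 and C5ar1 the WT day 10 points split into 2 high and 2 low libraries.

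Alternative pathway genes moved apart from each other. Cfb, the most abundant complement gene of the control kidney, passed in no obstruction comparison. It stood at 652, 605, 495 and 635 CPM in WT at day 0, 467, 334, 378 and 747 at day 5 and 356, 323, 718 and 482 at day 10, and at 535 to 717, 450.3 to 703 and 437 to 579 in KO, with overlap throughout. Its log2 differences were -0.31 ± 0.25 (SE; adjusted p = 0.297) and -0.34 ± 0.25 (SE; adjusted p = 0.232) in WT and -0.12 ± 0.25 (SE; adjusted p = 0.73) and -0.28 ± 0.25 (SE; adjusted p = 0.35) in KO, all below 0 on counts, while on log2(FPKM + 1) they were 0.27, 0.20, 0.45 and 0.31. These FPKM values all lay below the median of all genes on that scale. On counts, the day 5 value without WT day 5 replicate 4 was -0.56 (adjusted p = 0.0469), and the day 10 value without WT day 10 replicate 3 was -0.60 (0.034).

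Cfp, which encodes properdin, the stabiliser of the alternative convertase that is released by neutrophils and other leukocytes, rose in every obstruction comparison. It stood at 3.98, 4.17, 4.22 and 4.21 CPM in WT at day 0, 23.4, 25.2, 29.98 and 13.5 at day 5 and 31.7, 208, 205 and 23.5 at day 10. Its KO values were 6.31 to 8.15, 13.9 to 21.2 and 15.6 to 28.6 CPM, and obstructed and control libraries did not overlap. The log2 fold changes were 2.47 ± 0.52 (SE; adjusted p = 0.000508) and 4.82 ± 0.56 (SE; adjusted p = 3.29e-07) in WT and 1.28 ± 0.49 (SE; adjusted p = 0.044) and 1.70 ± 0.50 (SE; adjusted p = 0.00671) in KO. Without WT day 10 replicates 2 and 3, where the neutrophil markers were also high, the WT day 10 value was 2.76. The KO day 5 call was lost on leaving out any 1 library of KO day 0, or KO day 5 replicate 1, 3 or 4, with adjusted p from 0.064 to 0.0896.

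Cfd, factor D, the protease that cleaves factor B and a product of fat cells, was held by a few libraries. It stood at 1.38, 4.85, 15.7 and 0 CPM in WT at day 0, 0.0594, 0, 0 and 4.09 at day 5 and 0, 0.101, 0 and 0 at day 10, so that WT day 0 alone ran from 0 to its highest value. It was called lower in WT at day 10 (adjusted p = 0.00088), where the group held 2 counts against 248 at day 0, a ratio of 205 (95% interval 56.3 to 1706) that covers counting error only. KO held 14, 10 and 2 counts at day 0, 5 and 10 and was not called. The 6 adipocyte markers summed to 40.8, 53.0, 82.1 and 34.8 CPM in the WT day 0 libraries, highest and lowest where Cfd was. They summed to 79.2 to 118 CPM at WT day 5 and 52.0 to 282 at WT day 10. In most of these libraries Cfd was at or near 0. Only 2 of the 6 markers, Cidec and Fabp4, passed the filter and were tested. Against WT day 0, 1 of them was called higher and 0 lower at day 5. At day 10, 1 was called higher and 1 lower, with a median log2 change of -0.29. The sums therefore do not show a shared direction of the 6 genes. The part of fat in the Cfd values was not tested.

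Terminal pathway genes split into a rising and a falling pair. C6 rose from 0.605, 0.0850, 0.179 and 0.0859 CPM in WT at day 0 to 1.84, 1.65, 1.80 and 2.9996 at day 5 and 2.70, 4.35, 7.09 and 2.22 at day 10, log2 changes of 3.09 ± 0.57 (SE; adjusted p = 0.000151) and 4.06 ± 0.56 (SE; adjusted p = 2.88e-06). In KO it rose from 0.258, 1.19, 0.152 and 0.779 CPM to 2.38 to 3.86 (2.35) and 3.23 to 4.72 (2.83). C7, which inserts the growing pore into the membrane, rose from 5.27 to 7.89 CPM in WT to 15.7 to 33.04 and 11.5 to 33.1, and from 7.30 to 10.98 in KO to 14.04 to 38.8 and 19.5 to 29.1. The log2 fold changes of C7, 1.62, 1.69, 1.77 and 1.47, lay close together. For both genes, no obstructed library overlapped the controls of its genotype.

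C8a and C8g, which encode the alpha and gamma chains of C8, fell. C8a went from 72.3, 70.04, 64.9 and 77.9 CPM in WT at day 0 to 16.2, 11.1, 10.98 and 12.3 at day 5 and 3.55, 0.0506, 0.480 and 15.2 at day 10, where replicates 2 and 3 were lowest. In KO it went from 45.5, 60.1, 63.3 and 65.7 to 7.50 to 11.9 and 1.77 to 11.1. Its log2 changes were -2.49 ± 0.69 (SE; adjusted p = 0.00438) and -3.88 ± 0.73 (SE; adjusted p = 0.000103) in WT and -2.61 ± 0.69 (SE; adjusted p = 0.00553) and -3.24 ± 0.71 (SE; adjusted p = 0.000804) in KO, a fall of 5.64-fold at day 5 in WT and 6.12-fold in KO. Without WT day 10 replicates 2 and 3 the WT day 10 value was -2.90. C8g fell from 24.4 to 26.7 CPM in WT to 6.56 to 9.86 and 0.354 to 7.77, and its log2 changes were -1.66 and -2.86 in WT and -1.18 and -1.88 in KO. The KO day 5 call of C8g (adjusted p = 0.0469) was lost on leaving out KO day 0 replicate 1, 2 or 3 or KO day 5 replicate 1, 3 or 4, with adjusted p from 0.0697 to 0.127. Proximal tubule markers moved the same way as C8a and C8g: their sum was 17424.5 to 21122 CPM in WT at day 0, 2398 to 8587 at day 5 and 246 to 6645 at day 10. Distal nephron markers were also lower, 4 of 7 in WT at day 5 and 7 of 7 at day 10, with sums of 8855 to 12561 CPM at day 0, 3470 to 4619 at day 5 and 203 to 5400 at day 10. So were 5 of 6 tested hepatocyte markers at both days, with sums of 512 to 725, 71.4 to 272 and 73.9 to 251 CPM. The part of these markers in the fall was not tested. C8b, the beta chain, had 4 counts in all 24 libraries, and C9, the pore-forming unit, had 73 counts with at most 0.646 CPM in any library.

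Hc, the mouse gene for C5, was near the limit of these libraries, with 302 counts over the 24. It stood at 0.778, 0.170, 0.628 and 0.430 CPM in WT at day 0, 0.951, 0.354, 0.898 and 2.05 at day 5 and 1.28, 1.16, 2.22 and 0.476 at day 10, and at 0, 0, 0.0762 and 0 in KO at day 0, 0.466, 0.662, 0.590 and 1.02 at day 5 and 0.588, 0.236, 0.914 and 1.31 at day 10. KO day 0 held 1 count in 4 libraries. The ratio to it was 31.6 (95% interval 5.40 to 1273) for KO day 5, with 48 counts, and 35.4 (95% interval 6.09 to 1424) for KO day 10, with 54, counting error only, and both were called higher (adjusted p = 0.00142 and 0.000538). In WT the call was made at day 10 alone (1.35 ± 0.58 SE, adjusted p = 0.0444) and was lost without WT day 0 replicate 2, 3 or 4 or WT day 10 replicate 1, 2 or 3, with adjusted p from 0.0505 to 0.154.

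**Figure D3:**
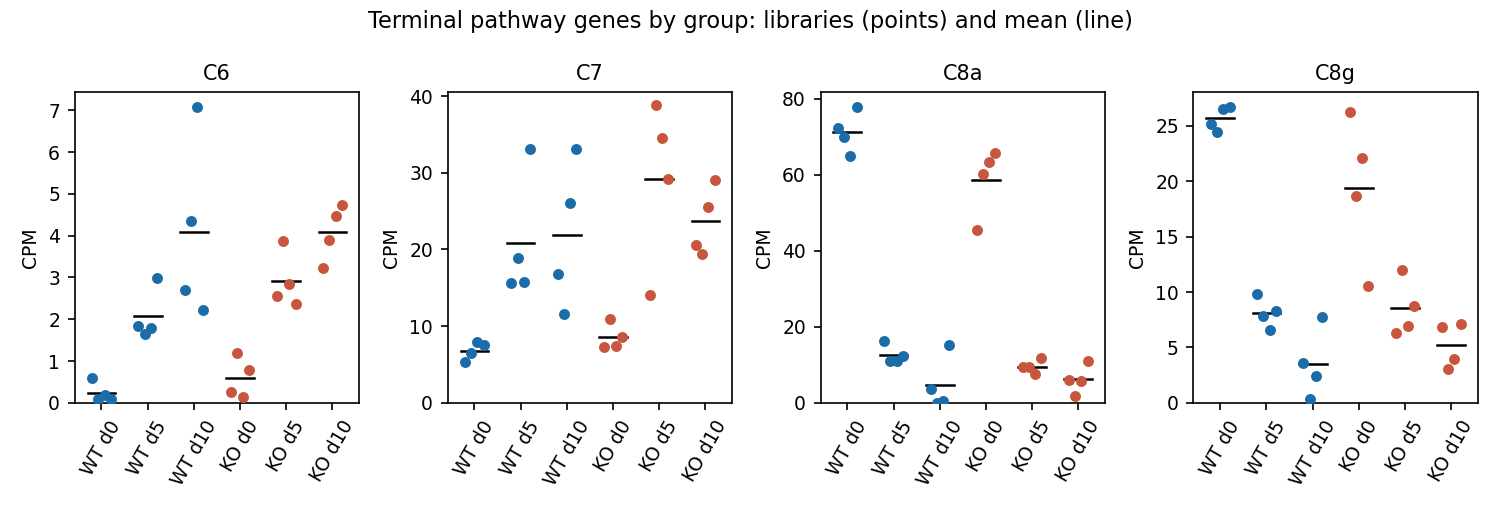
CPM on a linear axis from 0 for the terminal pathway genes C6, C7, C8a and C8g, with libraries as points (WT blue, KO red) and group means as lines. C6 and C7 are higher and C8a and C8g lower in obstructed than in day 0 libraries of either genotype, apart from KO day 5 replicate 2 of C8g, which lies above KO day 0 replicate 4.

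On counts, soluble regulators rose and membrane regulators fell or did not pass. Cfi, factor I, the protease that inactivates C3b and C4b, rose from 3.29, 4.85, 4.31 and 3.69 CPM in WT at day 0 to 61.97, 62.7, 46.002 and 83.1 at day 5 and 56.8, 47.4, 40.7 and 62.99 at day 10. In KO it rose from 3.61, 4.77, 4.49 and 9.27 to 44.5 to 81.3 and 51.9 to 73.3, and no obstructed library of either genotype came near its controls. Its log2 changes were 3.97 ± 0.27 (SE; adjusted p = 9.72e-10) and 3.69 ± 0.27 (SE; adjusted p = 9.72e-10) in WT and 3.47 and 3.44 in KO, rises of 15.7-fold, 12.9-fold, 11.1-fold and 10.9-fold. Serping1, the inhibitor of C1r, C1s and the MASP proteases, went from 30.8, 48.5, 57.1 and 44.4 CPM in WT to 203 to 326 and 273 to 524, and from 55.7 to 118 in KO to 241 to 345 and 341 to 383. The log2 changes of Serping1 were 2.47, 3.10, 1.78 and 2.02, with no overlap.

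Cd55, decay-accelerating factor, which takes C3 convertases apart, fell from 48.5, 40.3, 38.2 and 44.9 CPM in WT at day 0 to 11.3, 10.03, 8.98 and 16.3 at day 5 and 7.77, 11.5, 11.8 and 15.4 at day 10. In KO it went from 19.6, 32.5, 30.4 and 14.3 to 9.79, 17.5, 15.8 and 13.5 at day 5, which overlapped, and 11.7, 10.97, 9.67 and 13.4 at day 10, which did not. Its log2 changes were -1.88 ± 0.25 (SE; adjusted p = 4.39e-06) and -1.88 ± 0.25 (SE; adjusted p = 1.78e-06) in WT, and -0.77 ± 0.25 (SE; adjusted p = 0.017) and -1.08 ± 0.25 (SE; adjusted p = 0.00112) in KO. Cd55 at KO day 5 no longer passed on leaving out KO day 0 replicate 2 or 3 or KO day 5 replicate 1 (adjusted p from 0.0613 to 0.072). Cd59a was lower at day 10 in both genotypes, -0.71 ± 0.20 (SE; adjusted p = 0.00426) in WT and -0.87 ± 0.21 (SE; adjusted p = 0.00143) in KO, with 51.01 to 72.4 CPM in WT at day 0 and 26.6 to 49.6 at day 10, and 33.5 to 53.8 and 20.5 to 28.5 in KO. Without WT day 10 replicates 2 and 3 its WT value was -0.45 and was not called (adjusted p = 0.108).

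Cr1l passed in WT at day 5 alone, at -0.40 ± 0.14 (SE; adjusted p = 0.0222), with 50.5 to 62.8 CPM at day 0 and 38.7 to 52.5 at day 5, which overlapped through replicate 4, and its direction was reversed on log2(FPKM + 1), at 0.20. Cr1l no longer passed on leaving out WT day 0 replicate 2 or WT day 5 replicate 1, 2 or 3 (adjusted p from 0.0642 to 0.0923). Cd46, a membrane cofactor of factor I, stood between 0.340 and 1.96 CPM in all 24 libraries and passed in no comparison on counts. The small falls depend on the scale. On log2(FPKM + 1) the median of all genes was 0.47 to 0.54 higher after obstruction, and 90.2% of the genes called in WT at day 5 were higher, in place of 54.7% on counts. On that scale 18 members were called higher and 4 lower in WT at day 5, Cd55 in KO was at -0.13 (adjusted p = 0.581) and -0.33 (0.13), and Cd59a at day 10 was at -0.07 (0.745) in WT and -0.22 (0.311) in KO. All 4 values lay below the median of all genes on that scale. Cd46 was called higher there in WT at day 5 (0.34, adjusted p = 0.0352) and day 10 (0.46, 0.00588) and in KO at day 10 (0.53, 0.0025). Cr1l was called higher there in WT at day 10 (0.36, 0.0205) and in KO at day 5 (0.51, 0.00301) and day 10 (0.38, 0.0182). The Cd46 values in WT and the Cr1l values at day 10 also lay below the all-gene median of 0.47 to 0.54. Cr1l in KO at day 5 and Cd46 in KO at day 10 lay within that range, so these calls show no rise beyond that of all genes.

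The anaphylatoxin receptors rose in every obstruction comparison. C3ar1, the receptor for C3a, stood at 1.82, 2.30, 3.14 and 1.80 CPM in WT at day 0, 26.3, 25.2, 24.3 and 29.3 at day 5 and 38.3, 120.2, 129 and 30.7 at day 10. In KO it stood at 10.5, 8.23, 10.9 and 10.3, then 26.9, 37.4, 37.3 and 53.2, then 38.1, 47.96, 52.3 and 51.3. Its log2 changes were 3.54 ± 0.39 (SE; adjusted p = 4.09e-07) and 5.14 ± 0.41 (SE; adjusted p = 3.03e-09) in WT and 1.95 ± 0.34 (SE; adjusted p = 0.000183) and 2.25 ± 0.35 (SE; adjusted p = 2.58e-05) in KO, with no overlap. C5ar1, the receptor for C5a on neutrophils and macrophages, stood at 0.346, 0.680, 0.897 and 0.773 CPM in WT at day 0, 11.2, 16.04, 13.5 and 10.3 at day 5 and 11.4, 128, 157 and 14.7 at day 10. KO values were 3.35, 3.46, 2.51 and 4.44, then 12.9, 8.66, 16.2 and 9.96, then 9.22, 7.31, 13.5 and 13.3. The C5ar1 log2 changes were 4.23 ± 0.72 (SE; adjusted p = 7.25e-05) and 6.85 ± 0.75 (SE; adjusted p = 1.78e-07) in WT and 1.79 ± 0.59 (SE; adjusted p = 0.0213) and 1.65 ± 0.59 (SE; adjusted p = 0.0235) in KO.

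WT day 10 replicates 2 and 3 carried the high receptor values. Without them the WT day 10 log2 change was 3.96 for C3ar1 and 4.29 for C5ar1. In KO the C5ar1 call at day 5 was lost without KO day 0 replicate 3 or KO day 5 replicate 3 (adjusted p = 0.062 and 0.0559), and at day 10 without KO day 0 replicate 3 or KO day 10 replicate 3 (0.0645 and 0.0523). Vsig4, a macrophage receptor for C3b, had 6 counts in the 24 libraries.

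Between day 5 and day 10 of obstruction, 6 members were higher in WT and none lower, beside 10.8% of all genes called, 7.86% higher and 2.93% lower. They were Cfp (2.35 ± 0.48 SE, adjusted p = 0.00661), C5ar1 (2.62 ± 0.56 SE, adjusted p = 0.00805), C3ar1 (1.60 ± 0.33 SE, adjusted p = 0.00684), C1qa (1.25 ± 0.26 SE, adjusted p = 0.00739), C1qb (1.16 ± 0.29 SE, adjusted p = 0.0165) and C1qc (0.95 ± 0.28 SE, adjusted p = 0.0354). C1qb stood at 158, 180.5, 154 and 153 CPM at day 5 and 185, 462, 598 and 195 at day 10, and C1qc at 139, 167, 168 and 123 and 171, 366, 463 and 146. WT day 10 replicates 2 and 3 were the high libraries for all 6 genes, and of the 6 only C1qa, C1qb and C3ar1 had every day 10 library above every day 5 library. Without these 2 libraries no member was called, and the values of Cfp, C5ar1, C3ar1, C1qa, C1qb and C1qc were 0.25, 0.02, 0.38, 0.41, 0.22 and 0.08. Leaving out WT day 10 replicate 3 alone ended the calls of C1qb (0.78, adjusted p = 0.111), C1qc (0.59, 0.231) and C5ar1 (0.0507), and leaving out replicate 2 those of C1qb (0.0708) and C1qc. The number of members called was 12 without WT day 10 replicate 4 and 3 without replicate 3. No share of all genes is given beside these counts. C1qc also failed without any 1 WT day 5 library, and its adjusted p over these 6 fits ran from 0.059 to 0.231. Same-numbered libraries of these groups correlated by the check given with the processing, which does not show pairing. A fit with the replicate number as a block ended none of these 6 calls. In KO, 0 of 26 members passed between day 5 and day 10, with 0 at an unadjusted p under 0.05, 0 by DESeq2 and 0 by limma on FPKM, beside 0.0199% of all genes called, 0.0199% higher and 0% lower.

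At day 0, before obstruction, KO kidneys had more RNA of 9 complement genes and less of 1, beside 4.18% of all genes called, 3.65% higher and 0.531% lower. By role, 6 of 7 classical genes were higher (C1qa, C1qb, C1qc, C1ra, C2 and C4b), as were C3, the receptor C3ar1 and the regulator Serping1, while no alternative or lectin gene passed. The terminal gene Hc was lower. The median over the 26 was 0.42, beside 0.01 over all genes.

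C4b had the highest log2 difference of the 9, 2.38 ± 0.50 (SE; adjusted p = 0.00731), with 19.2 to 50.3 CPM in KO against 3.11 to 12.6 in WT, and these did not overlap. C3ar1 followed at 2.14 ± 0.39 (SE; adjusted p = 0.00252), with 8.23 to 10.9 CPM against 1.80 to 3.14. C3 was 3.30-fold higher (1.72 ± 0.42 SE, adjusted p = 0.0186), with 3 KO libraries between 33.7 and 43.2 CPM, replicate 4 at 92.5 and WT at 10.5 to 19.8. C1qa (1.60 ± 0.27 SE, adjusted p = 0.00155), C1qb (1.60) and C1qc (1.65) differed alike, C1qa at 38.2 to 56.9 CPM in KO against 11.5 to 19.3 in WT. C1ra was at 1.45 and C1s1, outside the list, at 0.97 (adjusted p = 0.0432, lost in 7 of 8 fits that left out 1 library). Smaller differences were those of Serping1, 0.97 ± 0.24 (SE; adjusted p = 0.0218), whose groups overlapped at KO replicate 3, and C2, 0.90 ± 0.24 (SE; adjusted p = 0.0371), whose groups did not. Hc held 1 count in KO and 23 in WT at day 0, a ratio of 22.9 (95% interval 3.73 to 945) by counting error alone.

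Some of these calls ended when 1 library was left out, and 6 members passed without WT replicate 1 and 6 without KO replicate 4. C3 was lost without KO replicate 4 (1.28, adjusted p = 0.105), WT replicate 1 (0.089) or WT replicate 2 (0.0553). C2 was lost without any 1 WT library or KO replicate 1 or 4 (adjusted p from 0.0518 to 0.194), Serping1 without WT replicate 1 or 4 or KO replicate 1, 2 or 4 (0.0507 to 0.108), and Hc without WT replicate 1, 3 or 4 or KO replicate 1, 2 or 4 (0.0514 to 0.106). The calls of C1qa, C1qb, C1qc, C1ra, C4b and C3ar1 held in all 8 of these fits. On log2(FPKM + 1) with limma, C3 (1.31, adjusted p = 0.0608) and C3ar1 (0.87, 0.139) did not pass. Another 3 members did not pass and had groups that did not overlap: C5ar1 at 2.34 ± 0.76 (SE; adjusted p = 0.0929), Cfp at 0.79 ± 0.53 (SE; adjusted p = 0.52) and Cd55, lower in KO, at -0.83 ± 0.24 (SE; adjusted p = 0.057). How many of all tested genes had groups that did not overlap was not computed, so the separation is description only. Cd55 passed without KO replicate 2 or 3 (adjusted p = 0.0389 and 0.0405), and DESeq2 called C5ar1 (adjusted p = 0.00453) and Cd55 (0.0189). Markers of leukocytes moved with the group: 9 macrophage genes summed to 257 to 333 CPM in KO against 146 to 208 in WT with 4 of 9 higher, 8 T cell genes to 22.8 to 41.1 against 4.00 to 9.11 with 8 of 8 higher, and 6 B and plasma cell genes to 22.0 to 65.6 against 4.59 to 8.25 with 2 of 6 higher. KO replicate 4, the library with 92.5 CPM of C3, also had the highest injured tubule sum of the day 0 libraries, 3257 CPM against 939 to 1526 in the other 7, and 1 of 6 of these markers was higher in KO. The part of these cells in the complement differences was not tested.

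**Figure D4:**
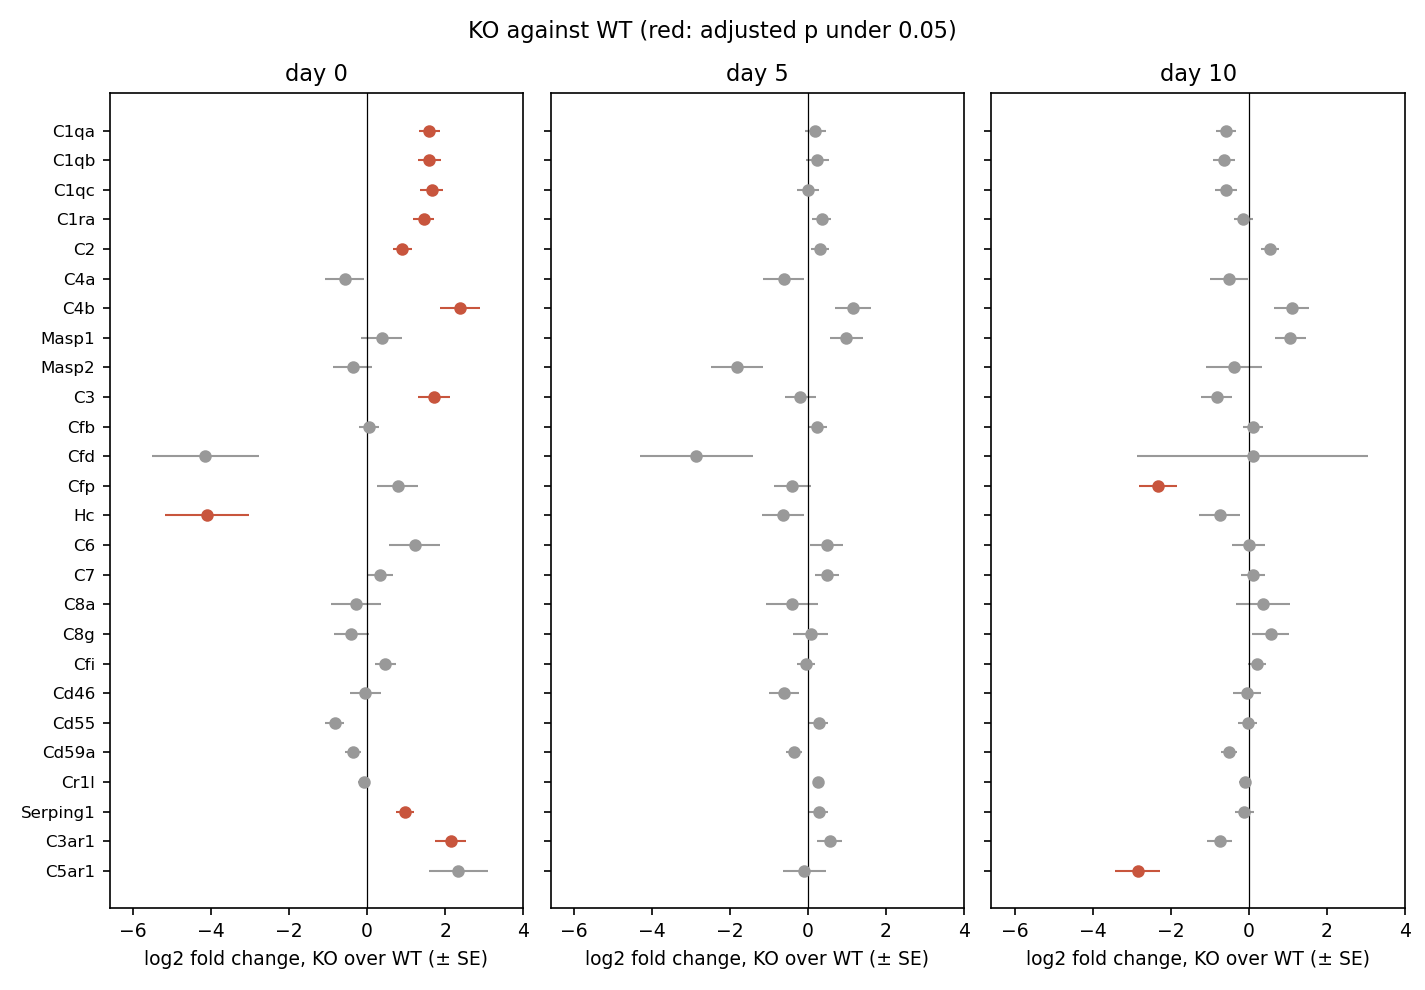
Log2 fold change of KO over WT with its standard error for the 26 tested genes at day 0, day 5 and day 10, 4 libraries a group, in red where the adjusted p is under 0.05. At day 0, 9 genes lie to the right and Hc to the left in red. At day 5 no gene is red, and at day 10 Cfp and C5ar1 are red on the left.

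At day 5 of obstruction, 0 of 26 members differed between genotypes by edgeR, with 3 at an unadjusted p under 0.05 (C4b, Masp1 and Masp2), 0 by DESeq2 and 0 by limma on FPKM, beside 0.146% of all genes called, 0.0663% higher and 0.0796% lower. C3 was at -0.20 ± 0.40 (SE; adjusted p = 0.846) and C1qa at 0.19 ± 0.26 (SE; adjusted p = 0.763), with overlapping libraries. C4b was at 1.16 ± 0.46 (SE; adjusted p = 0.294), and passed without WT replicate 4 (1.61, adjusted p = 0.0352), whose 69.2 CPM lay within the KO range of 51.2 to 108. A p above the threshold does not show that the genotypes were alike.

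At day 10, Cfp and C5ar1 were lower in KO, 2 of 26 members beside 1.41% of all genes called, 1.27% lower and 0.139% higher. The log2 differences were -2.33 ± 0.48 (SE; adjusted p = 0.017) for Cfp and -2.85 ± 0.57 (SE; adjusted p = 0.0164) for C5ar1, but the libraries overlapped: WT replicates 1 and 4, at 31.7 and 23.5 CPM of Cfp and 11.4 and 14.7 of C5ar1, lay within or next to the KO ranges of 15.6 to 28.6 and 7.31 to 13.5. Without WT replicates 2 and 3 the differences were -0.26 and -0.28 and no member passed. Same-numbered libraries correlated here by the check given with the processing, which does not show that they are pairs. With the replicate number as a block neither gene passed, at -2.12 and -2.57 (adjusted p = 0.0597 for both). Leaving out WT replicate 2 or any 1 KO library also ended both calls, with adjusted p from 0.0586 to 0.0878. All 6 tested neutrophil markers were lower in KO at day 10, with sums of 11.7 to 22.4 CPM against 26.6 to 6667 in WT, and 3 of 9 macrophage markers were lower. Their part in the 2 calls was not tested. C3 stood at -0.82 ± 0.40 (SE; adjusted p = 0.347) and C1qa at -0.59 ± 0.26 (SE; adjusted p = 0.302), and both were above 0 without WT replicates 2 and 3 (0.31 and 0.23). Without WT replicate 4, 8 members passed, 6 lower and 2 higher in KO, among them C1qa (-0.79, adjusted p = 0.036). For that fit the share of all genes called is not given here, and the 1.41% is from all 24 libraries. C4b stood at 1.10 ± 0.46 (SE; adjusted p = 0.265).

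The genotype difference in the response, the change from day 0 in KO minus that in WT, was tested as an interaction. At day 10, 8 members rose less in KO than in WT and none more, beside 3.25% of all genes called, 3.12% lower and 0.133% higher. They were C5ar1 (-5.19 ± 0.94, adjusted p = 0.00797), Cfp (-3.12 ± 0.71, adjusted p = 0.0163), C3ar1 (-2.89 ± 0.51, adjusted p = 0.00797), C3 (-2.54 ± 0.58, adjusted p = 0.016), C1qc (-2.24 ± 0.40, adjusted p = 0.00797), C1qb (-2.23 ± 0.42, adjusted p = 0.00838), C1qa (-2.18 ± 0.38, adjusted p = 0.00797) and C1ra (-1.59 ± 0.36, adjusted p = 0.0171). By role these are 4 of 7 classical genes, C3, 1 of 3 alternative genes and both tested receptors, with none of the lectin or terminal genes or regulators. DESeq2 also called the regulator Serping1 lower in this interaction (-1.07, adjusted p = 0.0405). All 8 edgeR members had a higher mean in KO at day 0, and for Cfp, which was not called there, the day 0 difference was 0.79. Without WT day 10 replicates 2 and 3, C5ar1 (-2.63, adjusted p = 0.00423), C3ar1 (-1.71, 0.00512), C1qc (-1.40, 0.0203), C1qa (-1.38, 0.0101), C1qb (-1.32, 0.0226) and C1ra (-0.89, 0.0436) passed, and C3 (-1.42, 0.177) and Cfp (-1.06, 0.208) did not. C1ra was also lost without WT day 0 replicate 1 (-1.46, 0.0531). On log2(FPKM + 1) with limma none of the 8 passed (adjusted p from 0.0937 to 0.336), while the direction of all 8 was the same. In the same interaction 6 of 9 macrophage, 3 of 8 T cell and 2 of 6 tested neutrophil markers were lower, with a median over the 8 T cell genes of -2.80 and over the 9 macrophage genes of -2.84, and their part was not tested.

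At day 5 the same interaction called 0 of 26 members by edgeR, with 9 at an unadjusted p under 0.05, beside 0.564% of all genes called, 0.531% lower and 0.0332% higher. DESeq2 called 3, C1qa (-1.39, adjusted p = 0.0301), C1qc (-1.63, 0.0115) and C3 (-1.91, 0.0403), and limma on FPKM 0. The edgeR values were -1.65 ± 0.40 (SE; adjusted p = 0.0676) for C1qc and -1.92 ± 0.57 (SE; adjusted p = 0.142) for C3. A fit without WT day 10 replicates 2 and 3, which are in none of the groups compared here, called 8 members lower, C1qa, C1qb, C1qc, C1ra, C3, Cfp, C3ar1 and C5ar1, with C1qc at -1.68 (adjusted p = 0.000853). The share of all genes called in that fit is not given here, and the 0.564% is from all 24 libraries. C1qc also passed without KO day 0 replicate 3, WT day 5 replicate 4 or KO day 5 replicate 1 (adjusted p from 0.0245 to 0.046).

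Near-identical gene copies limit the values of C4a, C1rb and their partners. In GENCODE M21 transcripts, C4a and C4b were 95.97% identical over 5378 bases, C1ra and C1rb 97.9% over 2432, and C1s1 and C1s2 95.95% over 2644. In the counts C1rb had 16 reads in all 24 libraries, while its deposited FPKM was 0.402 to 1.03 in WT at day 0 and 5.40 to 17.6 at day 10, a course like that of C1ra at 1.51 to 2.90 and 17.98 to 58.6. C4a had 491 counts and passed in no comparison, with 3.29, 1.70, 1.08 and 1.89 CPM in WT at day 0 and 2.27, 2.13, 1.68 and 1.06 at day 10 (-0.15 ± 0.48 SE, adjusted p = 0.795) and -0.08 ± 0.51 (SE; adjusted p = 0.904) in KO, whereas on log2(FPKM + 1) it was called higher, at 0.95 in WT (adjusted p = 0.000117) and 1.33 in KO (3.75e-06). The sign of the C4a count value was itself changed by leaving out WT day 0 replicate 1 (0.20) or WT day 10 replicate 4 (0.06) in WT, and KO day 0 replicate 1 (0.13) or 3 (0.19) in KO. The 2 tables therefore disagree on C4a and C1rb, and these genes have no settled course here.

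**Figure D5:**
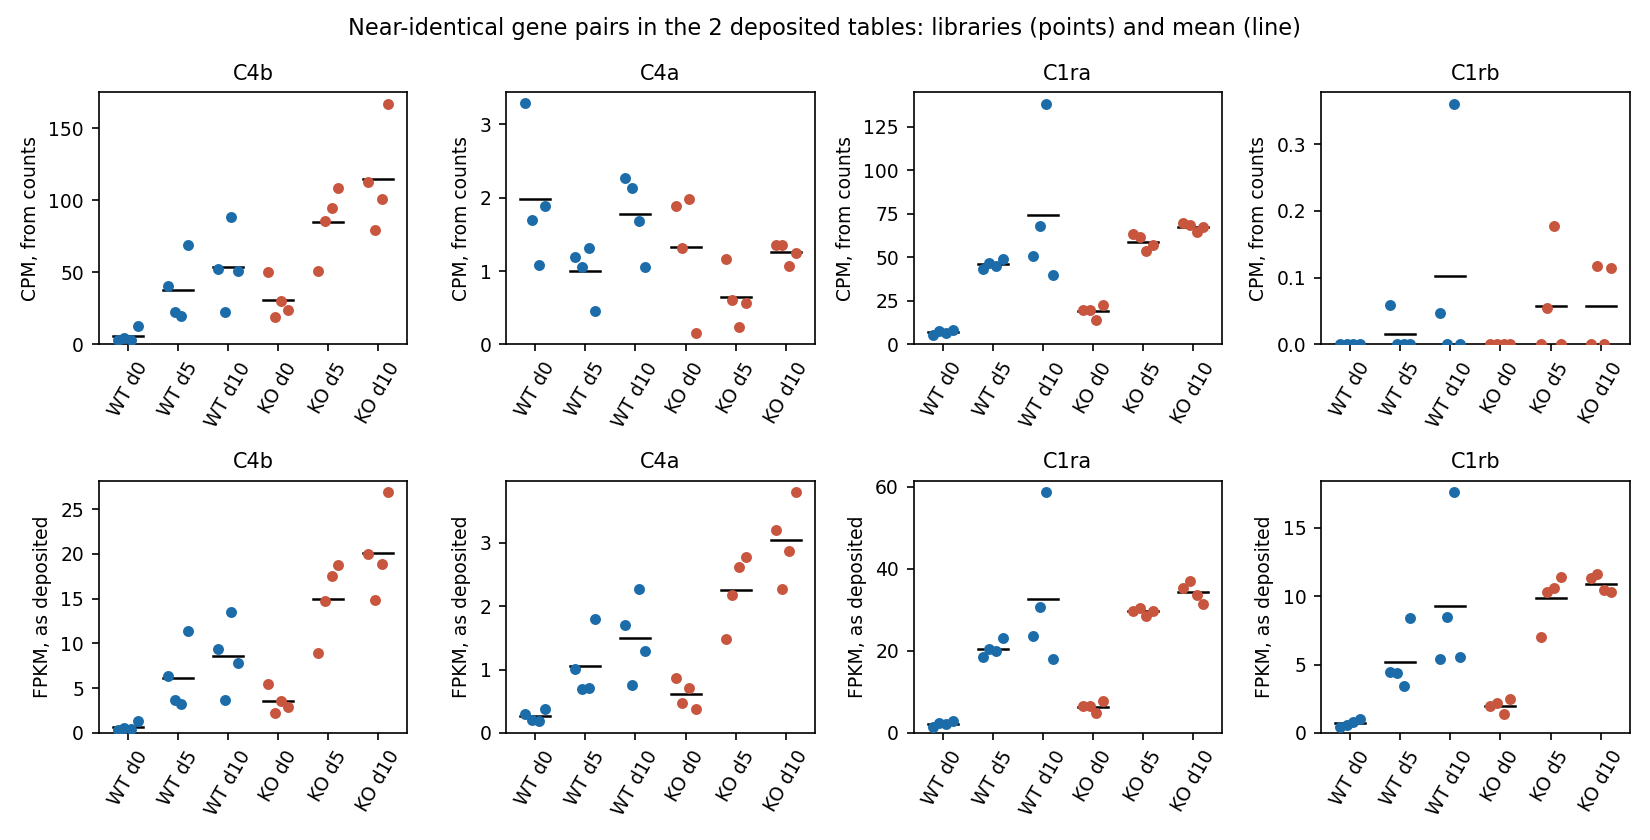
The pairs C4b and C4a, and C1ra and C1rb, as CPM from the counts (upper row) and as deposited FPKM (lower row), with libraries as points (WT blue, KO red) and group means as lines. C4b and C1ra have the same course in both tables, while C4a and C1rb are higher after obstruction in FPKM and stay flat or near 0 in counts.

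Of 30 other complement genes listed beside the members, 28 are in the count table and 18 were tested. In WT, 12 were higher and 1 lower at day 5 and 11 and 4 at day 10, and in KO 7 and 1, then 10 and 3, beside 56.6%, 68.1%, 39.5% and 54.3% of all genes called. The 8 of 18 in KO at day 5 are near that background. Among the lowest adjusted p in WT at day 10 were those of Itgax, the CD11c chain of a complement receptor of the integrin family (3.96 ± 0.30 SE, adjusted p = 1.46e-09), Itgam, the CD11b chain of another (7.47 ± 0.76 SE, adjusted p = 6.52e-08), and C5ar2, the other C5a receptor (5.02 ± 0.53 SE, adjusted p = 1.01e-07). Without WT day 10 replicates 2 and 3 these were 3.79, 4.83 and 4.05, all still called. KO was higher than WT at day 0 for 4 of the 18, beside 3.65% of all genes, among them Itgax (1.78), Itgb2, the shared chain of these receptors (2.07), and Thbd, thrombomodulin (0.76). The calls of Itgb2 (7 of 8 fits that left out 1 library, adjusted p from 0.0505 to 0.113) and Thbd (6 of 8, 0.0582 to 0.12) were lost when most of the day 0 libraries were left out in turn. At day 10 Itgam was lower in KO (-2.50, adjusted p = 0.0279) and was at 0.16 without WT day 10 replicates 2 and 3. The day 10 interaction was lower for Itgam (-4.35), Itgb2 (-3.74), C5ar2 (-3.34) and Itgax (-2.15), and without those 2 libraries it was -1.71, -1.68, -2.36 and -1.97, with C5ar2 no longer called (adjusted p = 0.0813).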

How the data were processed

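The 24 kidney libraries were grouped by genotype and day, per the labels. The authors deposited raw read counts per gene symbol and, in a separate table, FPKM per gene. The submitters' processing notes name bcl2fastq 2.16, STAR 2.5, Cufflinks and the mm9 build. The counting tool, its strand setting and its treatment of reads shared by gene copies are not given in the sources used here.

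Counts were tested with edgeR 4.0.16 in R 4.3.3 (TMM, filterByExpr with a minimum count of 10 and total of 15, robust quasi-likelihood fit of 6 group means with 18 residual degrees of freedom, Benjamini-Hochberg over 15080 genes, threshold 0.05), which was also tested on simulated data. Adjusted p-values are from this test unless DESeq2 1.42.0 or limma 3.58.1 is named. For limma, genes with an FPKM of at least 1 in 4 libraries were taken as log2(FPKM + 1) or log2(FPKM + 0.1), a scale that understates low genes, and 1 FPKM row without numbers was dropped. Intervals of count ratios are exact at 95%. No 2 libraries of the same group agreed within sampling noise, and pairs from different groups were not compared in this way. Transcripts of GENCODE M21 were compared with BLAST 2.17.0.

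Per-library values are given for members that pass in a genotype or interaction comparison, for the largest rise or fall in each role and for near-identical pairs, and those of Cfb were added after they were seen. Among other complement genes, values are given from those with the lowest adjusted p in WT at day 10, and 1 gene is not reported here. Members, lists and tests were chosen with earlier results of these data known. Alternatives were other scalings, filters, tools and units, fits of only the groups compared, a replicate block, and each library left out. Nothing in the labels ties same-numbered libraries together. Their deviations from the group means correlated above 0.1 in all 4 pairs between WT and KO at day 10 (0.141 to 0.306) and between WT at day 5 and day 10 (0.105 to 0.361), and in no other comparison of 2 groups. Libraries with different numbers were not compared in this way, so the correlations cannot show that equal numbers mark pairs.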

Additional observations from a re-analysis of the deposited data

Results flagged for a closer look

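In 10 of 156 gene and group combinations, 6.41%, the highest or lowest of 4 libraries stood apart by Dixon's criterion, where chance gives about 1 in 20. In WT at day 0 they were C1qc in replicate 1 (8.30 CPM, others 14.0 to 14.9) and C4b in replicate 4 (12.6 CPM, others 3.11 to 4.68). In KO at day 0 they were C3 in replicate 4 (92.5 CPM) and Hc in replicate 3 (0.0762 CPM, its single read there). WT day 5 replicate 4 was high for C6 (3 CPM), Cfd (4.09 CPM) and Cr1l (52.5 CPM). WT day 10 replicate 4 was high for Masp2 (0.476 CPM) and WT day 10 replicate 2 for Cfd (0.101 CPM), and KO day 5 replicate 3 was high for Cfd (0.472 CPM).

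The change from day 0 to day 10 differed between genotypes, as log2 KO minus WT, for C1qa (-2.18), C1qb (-2.23), C1qc (-2.24), C1ra (-1.59), C3 (-2.54), Cfp (-3.12), C3ar1 (-2.89) and C5ar1 (-5.19), by the edgeR interaction test.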

How the results depend on the processing

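The counts of members called kept within 1.5 times of the stated ones under RLE scaling, no filter and the stricter filter, and in the 4 obstruction comparisons under every alternative run. For KO against WT at day 10, limma on either FPKM scale, with or without the filter, the fit of only the groups compared, the replicate block, and the fit without WT day 10 replicates 2 and 3 each called 0. For WT day 10 against WT day 5, 0 were called from only the groups compared and without those 2 libraries. For the day 5 interaction DESeq2 called 3, and the fits of only the groups compared and without the 2 libraries 8. For the day 10 interaction 0 were called on log2(FPKM + 1) with or without the filter and from only the groups compared, and 5 on log2(FPKM + 0.1). Leaving out 1 library gave 6 to 11 calls for KO against WT at day 0, 0 to 1 at day 5 and 0 to 8 at day 10, 0 to 3 for the day 5 and 7 to 10 for the day 10 interaction, 3 to 12 for WT day 10 against WT day 5, and 19 to 22, 21 to 22, 15 to 20 and 19 to 21 for WT and KO at day 5 and day 10 of obstruction. Shares of all genes called under these alternatives are not given here.

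Signs turned on FPKM for Cfb (log2 0.27, 0.20, 0.45 and 0.31 in WT at day 5 and day 10 and in KO at day 5 and day 10, and the same to 2 decimals with a pseudocount of 0.1 or no filter), Cr1l in WT at day 5 (0.20, with 0.1 0.21) and C4a at day 10 (WT 0.95, with 0.1 2.05, and KO 1.33, with 0.1 2.18). On log2(FPKM + 1) these Cfb and Cr1l values lay below the median of all genes. Of member values not given above, C4a (0.66 and 1.01 in WT and KO at day 5), Cd59a (0.18 and 0.089 at day 5) and Cd46 (0.057 in KO at day 5) also turned sign on log2(FPKM + 1). So did Cr1l, with the values given above (0.36, 0.51 and 0.38 in WT at day 10 and KO at day 5 and day 10). C4a in KO at day 10 was 0.033 with the replicate block. C4a in WT at day 10 ran from -0.36 to 0.20 and in KO from -0.47 to 0.19 with 1 library left out. Without WT day 10 replicates 2 and 3, KO against WT at day 10 was 0.23 for C1qa, 0.31 for C3 and 0.16 for Itgam. The cause of a changed call was not tested. The replicate block also ended the day 10 calls of Itgam (-2.34, adjusted p = 0.0836) and Pld4 (-1.11, adjusted p = 0.0911) and no other call among the groups whose same-numbered libraries all correlated above 0.1. Among the other groups the block moved no count by over 1.5 times, and C8g in KO at day 5 no longer passed (-1.18, adjusted p = 0.0516). Of 2708 values of single genes under alternatives, 2427 kept direction and side of the threshold, 222 no longer passed, 30 newly passed and 29 turned sign. Low counts limit C4a, Cfd, Hc, Masp2, C1rb, C8b, C9 and Vsig4, and the missing statement on replicate sources limits every p-value.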
